A study of Rattus norvegicus with 8 samples.

Results

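The core circadian clock loop was examined in the Achilles tendon of the rat through the 8 genes that build it, Arntl (Bmal1), Clock, Npas2, Per1, Per2, Per3, Cry1 and Cry2. They were taken by gene symbol from a table of 15590 genes, and all 8 were in it. RNA had been sequenced from the right Achilles tendons of 8 male wild-type Sprague Dawley rats, 8 to 10 weeks old. Of these, 4 rats were killed straight after 1 h of treadmill running at 20 m/min on a 10° incline (0 h p.r., post-run), and 4 naïve control rats (NC) did not run. Each library came from 1 rat, so the errors and p-values describe the spread between rats. All values are FPKM, fragment counts divided by gene length and by a scaling factor for each library, which can be set side by side between genes. The libraries were not scaled to the same sum, which ran from 554130 FPKM in NC replicate 4 to 900138 FPKM in NC replicate 2.

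The clock loop is a feedback circuit that runs in nearly every cell. ARNTL pairs with CLOCK, or with the related NPAS2, and switches on the Per and Cry genes by binding E-box sequences, and the PER and CRY proteins return to the nucleus to shut that pair off. Nuclear receptors of the ROR and REV-ERB families drive and repress Arntl and give the loop its second arm. In peripheral tissues, tendon included, the levels of these transcripts rise and fall over the day, and Arntl and Npas2 run opposite in phase to the Per genes.

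This daily course bears on how the groups can be read. The sample titles place the killing of the 0 h p.r. rats directly at the end of the session, and those of the controls give no time. The methods for the treadmill experiment have the controls killed together with rats taken 12 h after running. No clock time was given for any rat in the sources used here. Running and time of day therefore cannot be told apart in the comparison between groups.

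Depth was estimated at 10660131 to 17464752 reads in genes per library, from the steps between low FPKM values. The 8 tendon markers examined were all present, with summed levels of 6831 to 12113 FPKM in NC and 9512 to 20181 FPKM in 0 h p.r. rats. The 9 skeletal muscle markers in the table summed to 4430 to 7078 FPKM in NC and to 32196, 5586, 15126 and 982 FPKM in 0 h p.r. replicates 1 to 4. The 10 adipocyte markers summed to 3151 to 6417 FPKM in NC and to 1029 to 2315 FPKM after running, and 6 of them passed both thresholds as lower (adjusted p below 0.05 in limma and a fold of at least 2), against 0.894% of all genes tested. Of these 6, Retn had an adjusted p below 0.05 with any 1 library left out, while the others lost it in 4 to 6 of 8 such fits. Cartilage markers summed to 7.96 to 88.8 FPKM in NC and 89.9 to 366 FPKM after running, and bone markers to 14.6 to 54.9 and 53.5 to 186 FPKM. NC replicate 2 stood apart, with the lowest depth and 31.1% of its FPKM in mitochondrial genes, against 16.3% to 21.9% in the other libraries. The part of these differences in the clock values was not tested. Fold changes, ratios, correlations and level ranks of the members were also computed without NC replicate 2, as were the counts of secondary loop and turnover genes. In bulk tissue, fewer cells of a type and less RNA per cell cannot be told apart.

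Motifs through which the loop is known to act were searched in the promoter windows of the members, 250 bases before to 50 after the start of the gene, from RefSeq on build GRCr8. A window was given for 7 of the 8 genes. Both strands were searched for the E-box CACGTG, held by 6.42% of all 33469 windows, its variant CACGTT (4.83%), the cAMP response element TGACGTCA (1.83%), the D-box TTANGTAA (2.24%) and the ROR element core TAGGTCA (2.63%). The 3 windows with a match are shown 5′ to 3′ on the strand of the gene, with the matched letters in capitals, and were picked for that after the expression values were known. Arntl lies at chr1:176766078-176766377 (plus strand), Per2 at chr9:99496944-99497243 (minus strand) and Cry2 at chr3:98860388-98860687 (minus strand).
Arntl: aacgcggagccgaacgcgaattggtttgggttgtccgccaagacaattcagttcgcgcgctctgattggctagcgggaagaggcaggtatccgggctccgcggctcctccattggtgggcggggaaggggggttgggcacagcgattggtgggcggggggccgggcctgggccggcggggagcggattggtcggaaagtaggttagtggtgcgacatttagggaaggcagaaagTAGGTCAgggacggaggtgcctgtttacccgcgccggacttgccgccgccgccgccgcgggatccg
Per2: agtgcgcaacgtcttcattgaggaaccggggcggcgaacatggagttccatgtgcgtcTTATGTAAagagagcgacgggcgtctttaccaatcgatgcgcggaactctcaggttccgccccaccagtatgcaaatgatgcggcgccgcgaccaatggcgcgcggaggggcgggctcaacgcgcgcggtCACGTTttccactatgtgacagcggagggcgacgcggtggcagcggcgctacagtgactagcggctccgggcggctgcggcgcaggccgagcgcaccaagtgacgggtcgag
Cry2: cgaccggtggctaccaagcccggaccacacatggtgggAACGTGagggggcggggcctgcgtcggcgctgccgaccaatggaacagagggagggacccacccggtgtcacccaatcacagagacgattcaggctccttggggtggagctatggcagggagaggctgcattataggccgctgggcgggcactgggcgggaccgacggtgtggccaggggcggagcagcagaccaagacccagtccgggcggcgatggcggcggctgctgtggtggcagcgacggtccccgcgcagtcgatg
Arntl held the ROR element core 16 bases before its start, which is the kind of site that ROR and REV-ERB receptors bind. Per2 held the E-box variant 62 bases and a D-box 192 bases before its start. In Cry2 the E-box variant lay on the opposite strand, read as AACGTG, 212 bases before the start. The windows of Clock, Npas2, Per1 and Per3 held none of these letters, which says nothing of sites elsewhere in those genes. A match of letters is a description and was not measured as a bound site in these samples.

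Between the groups, none of the 8 members passed the test. Per1, Per2, Cry1 and Cry2, the repressors of the loop other than Per3, had mean levels 1.44 to 1.5 times as high after running on the fitted scale. Arntl, Clock, Npas2 and Per3 had fitted folds between 0.958 and 1.32. No member passed both thresholds in limma, against 2.70% of the 13863 genes tested, and no member had an adjusted p below 0.05, against 5.72%. At an unadjusted p below 0.05 there were 3 of 8 members (Per1, Cry1 and Cry2), against 22.6% of all genes tested, and with voom on the recovered reads 0 of 8 before adjustment and 0 of 8 after it, where voom had 2976 and 535 of all 13862 genes. The groups did not overlap in 2 of 8 members (Per1 and Cry2), against 15.6% of all genes tested. The median log2 fold change of the members was 0.46, beside -0.0014 for all genes tested.

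**Figure D1:**
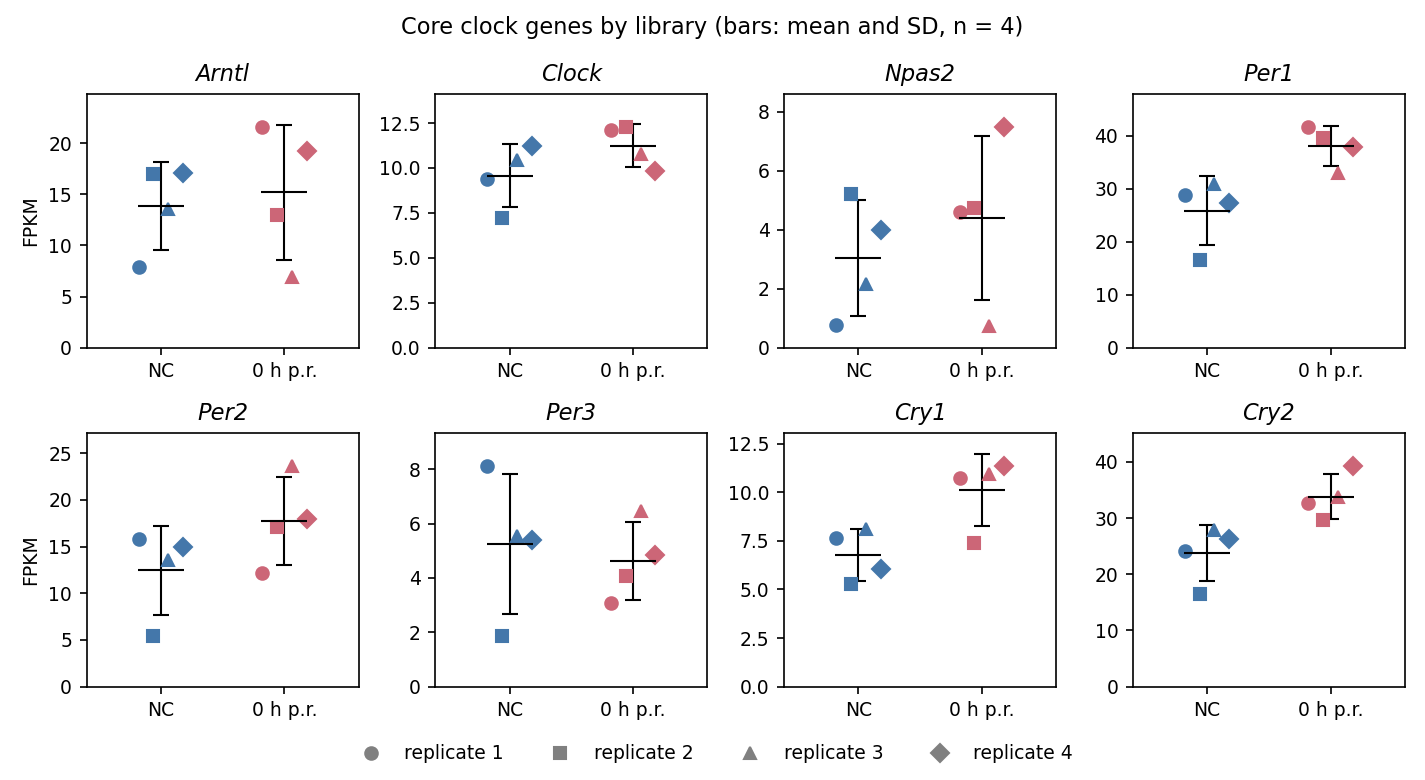
FPKM of each of the 8 core clock genes in the 4 NC and 4 0 h p.r. libraries, as points, with the group mean and SD. The groups are apart only for Per1 and Cry2, and the points of Arntl, Npas2 and Per3 spread as widely within a group as across both.

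Among the activators, Arntl (ENSRNOG00000014448) encodes the partner that CLOCK and NPAS2 share. It stood at 7.85, 16.9, 13.6 and 17.0 FPKM in NC replicates 1 to 4 and at 21.6, 13.0, 6.88 and 19.3 FPKM in 0 h p.r. replicates 1 to 4. Each group held 1 library well below the rest of it, and the groups overlapped over most of their range. The means were 13.9 ± 4.31 FPKM in NC and 15.2 ± 6.63 FPKM in 0 h p.r. rats (SD, n = 4 each), with a log2 fold change of 0.07 (95% interval -0.76 to 0.89) and an adjusted p of 0.942 in limma.

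Clock (ENSRNOG00000002175) was the steadiest member. Its levels were 9.41, 7.22, 10.5 and 11.2 FPKM in NC and 12.1, 12.3, 10.8 and 9.81 FPKM in 0 h p.r. rats. The groups overlapped, with NC replicate 2 the lowest of all libraries. The log2 fold change was 0.23 (95% interval -0.11 to 0.58, limma adjusted p = 0.423), from means of 9.58 ± 1.74 and 11.2 ± 1.17 FPKM (SD, n = 4 each).

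Npas2 (ENSRNOG00000013408), which can stand in for CLOCK, varied most from rat to rat. It stood at 0.764, 5.22, 2.17 and 4.01 FPKM in NC and at 4.59, 4.73, 0.749 and 7.50 FPKM in 0 h p.r. rats. The highest rat exceeded the lowest 6.84-fold within NC and 10.02-fold within the 0 h p.r. group, and each group held 1 library near the bottom and others well above it. Counting error was smaller than these gaps. The lowest value, in 0 h p.r. replicate 3, rested on 41 recovered reads and had an exact 95% Poisson interval of 0.537 to 1.02 FPKM, which covers counting error only. The log2 fold change was 0.40 with an interval of -1.01 to 1.81 (limma adjusted p = 0.768).

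Per1 (ENSRNOG00000007387), the Period gene that also answers acute signals, had the highest mean level of the members in both groups. It measured 28.7, 16.5, 30.9 and 27.3 FPKM in NC and 41.7, 39.6, 32.9 and 37.9 FPKM in 0 h p.r. rats. Every 0 h p.r. library lay above every NC library, by a narrow margin between 0 h p.r. replicate 3 and NC replicate 3. Its log2 fold change was 0.58 (SE 0.19, 95% interval 0.14 to 1.02), with means of 25.8 ± 6.44 and 38.0 ± 3.76 FPKM (SD, n = 4 each). The unadjusted p of limma was 0.0148 and the adjusted p 0.115.

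Per2 (ENSRNOG00000020254) showed a mean difference of like size with a wider spread. Its levels were 15.8, 5.43, 13.6 and 15.0 FPKM in NC and 12.2, 17.1, 23.7 and 17.9 FPKM in 0 h p.r. rats. The groups overlapped, since 0 h p.r. replicate 1 lay below 3 of the 4 NC libraries. Its log2 fold change came to 0.56 (95% interval -0.19 to 1.31, limma adjusted p = 0.368), and without NC replicate 2 it was 0.22.

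Per3 (ENSRNOG00000018413) was the only member with a negative estimate. It stood at 8.13, 1.86, 5.56 and 5.39 FPKM in NC and at 3.07, 4.08, 6.47 and 4.86 FPKM in 0 h p.r. rats. The NC libraries spanned the whole range of the 0 h p.r. libraries, with NC replicate 2 the lowest and NC replicate 1 the highest. In limma the log2 fold change was -0.06 (95% interval -0.92 to 0.79, limma adjusted p = 0.949), and without NC replicate 2 it was -0.44 (adjusted p = 0.310).

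Cry1 (ENSRNOG00000006622), the strongest transcriptional repressor of the loop, measured 7.66, 5.29, 8.09 and 6.05 FPKM in NC. The 0 h p.r. rats had 10.7, 7.38, 10.9 and 11.4 FPKM. Of the 4 0 h p.r. libraries, 3 lay above all NC libraries, and replicate 2 lay among them. Between the groups the log2 fold change was 0.54 (SE 0.18, 95% interval 0.13 to 0.96), with an unadjusted p of 0.0153 and an adjusted p of 0.118 in limma.

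Cry2 (ENSRNOG00000007478), its paralog, measured 24.2, 16.6, 28.0 and 26.3 FPKM in NC and 32.6, 29.7, 33.7 and 39.3 FPKM in 0 h p.r. rats. All 0 h p.r. libraries lay above all NC libraries. The log2 fold change was 0.52 (SE 0.17, 95% interval 0.13 to 0.91), with an unadjusted p of 0.0142 and an adjusted p of 0.114 in limma. NC replicate 2 was the lowest NC library for Clock, for all Per genes and for both Cry genes, and the highest for Npas2. Without it the log2 fold change was 0.38 for Per1, 0.44 for Cry1 and 0.36 for Cry2, with limma adjusted p of 0.0780, 0.176 and 0.104.

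The spread between rats differed among the members when their within-group SD on the log2 scale was placed among all genes tested, which had a median SD of 0.26. Npas2 had an SD of 1.07, larger than that of 97.5% of the genes tested. Per3 (0.63), Arntl (0.62) and Per2 (0.56) exceeded 92.3%, 91.9% and 89.8% of the genes. By contrast Per1 (0.30), Cry1 (0.27), Cry2 (0.26) and Clock (0.21) exceeded 61.4%, 52.7%, 49.7% and 35.1%. The spread of Per1, Cry1 and Cry2 was thus near the median of all genes. The places themselves were not recomputed without NC replicate 2. Without that library the SE of the log2 fold change was 0.20 in place of 0.33 for Per2 and 0.25 in place of 0.38 for Per3. It was 0.10 in place of 0.19 for Per1, 0.11 in place of 0.17 for Cry2 and 0.12 in place of 0.15 for Clock. For Arntl it was 0.42 in place of 0.37, for Npas2 0.68 in place of 0.62, and for Cry1 0.18 in both fits.

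Some libraries were extreme in several of these members at once. In each group the library lowest in Arntl was also the lowest in Npas2 and the highest in Per2 and Per3. These libraries were NC replicate 1 and 0 h p.r. replicate 3. At the other end, 0 h p.r. replicate 1 was the highest in Arntl and the lowest in Per2 and Per3, and NC replicate 2 was the highest in Npas2 and the lowest in Per2 and Per3. The pattern did not hold in NC replicate 4, which had the highest Arntl of its group and the second-highest Npas2 and Per2. Nor did it hold in 0 h p.r. replicate 4, which had the highest Npas2 of its group and the second-highest Arntl, Per2 and Per3. Dbp, a D-box activator outside the core loop, was also the highest in NC replicate 1 (30.3 FPKM) and 0 h p.r. replicate 3 (24.8 FPKM), and it was the lowest of its groups in NC replicate 2 (9.19 FPKM) and 0 h p.r. replicate 1 (7.56 FPKM). Dbp was picked after its values were seen. Tef, a related D-box activator, was likewise the highest in NC replicate 1 (40.2 FPKM) and 0 h p.r. replicate 3 (28.6 FPKM). Hlf was also the highest of NC in replicate 1 (5.07 FPKM), but its highest 0 h p.r. library was replicate 1 (4.15 FPKM), and Nr1d1 was the highest in NC replicate 4 (25.9 FPKM) and 0 h p.r. replicate 2 (36.3 FPKM).

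**Figure D2:**
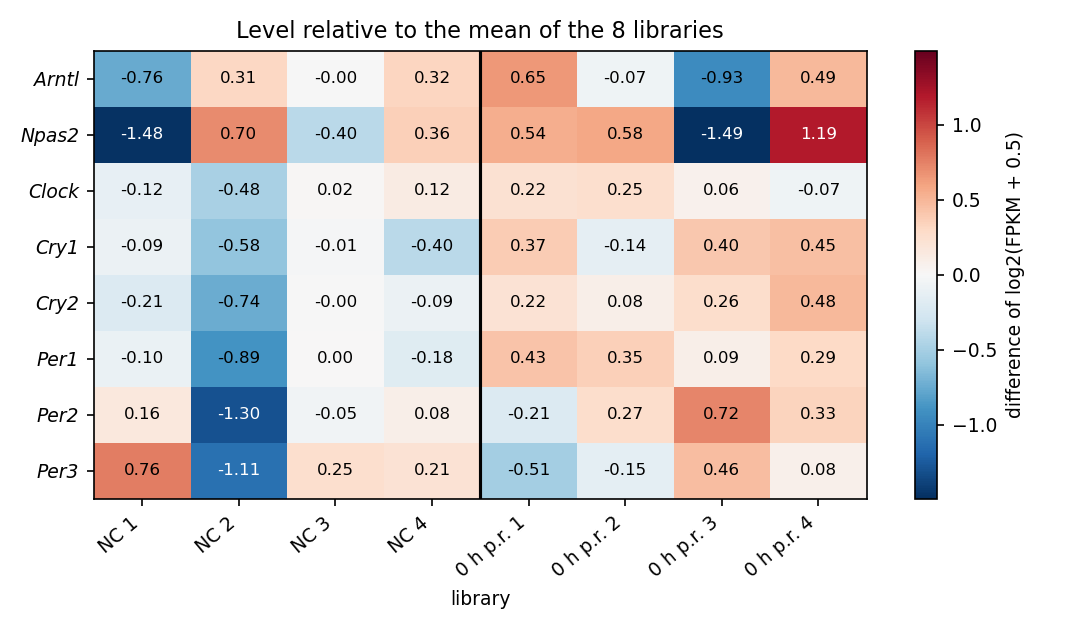
Heat map of log2(FPKM + 0.5) of each core clock gene in each library (columns) minus the mean of all 8 libraries. NC replicate 1 and 0 h p.r. replicate 3 share low Arntl and Npas2 with high Per2 and Per3, and 0 h p.r. replicate 1 has the opposite pattern for Arntl, Per2 and Per3.

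Correlations of log2(FPKM + 0.5) across the 8 libraries were computed for the 15 pairs of the 6 members whose groups overlapped, with exact permutation tests over 40320 orders and Benjamini-Hochberg adjustment over the 15 pairs. Arntl and Npas2 had a Pearson r of 0.915 (exact p = 0.00523, adjusted p = 0.0785) and a Spearman rho of 0.667 (exact p = 0.0831, adjusted p = 0.481). Without the libraries farthest from the median of Arntl, NC replicate 1 and 0 h p.r. replicate 3, r was 0.537, so the relation rested largely on them. With group means removed r was 0.925.

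Per2 and Per3 had a Pearson r of 0.812 (exact p = 0.0191, adjusted p = 0.143) and a Spearman rho of 0.548 (exact p = 0.171). Without NC replicate 2 and 0 h p.r. replicate 3 r was 0.356, while with group means removed it was 0.973. Npas2 and Per3 ran against each other, with r of -0.689 (exact p = 0.0535, adjusted p = 0.216) and rho of -0.810 (exact p = 0.0218, adjusted p = 0.327). Without the libraries farthest from the median r was -0.343. With Per2, r was -0.486 for Arntl (exact p = 0.236), -0.412 for Npas2 (exact p = 0.335) and 0.679 for Clock (exact p = 0.0978). Each rested on few libraries, since without the libraries farthest from the median r was -0.139 for Arntl and 0.00517 for Npas2, and without NC replicate 2 alone it was -0.236 for Clock. None of the 15 pairs passed the adjustment.

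**Figure D3:**
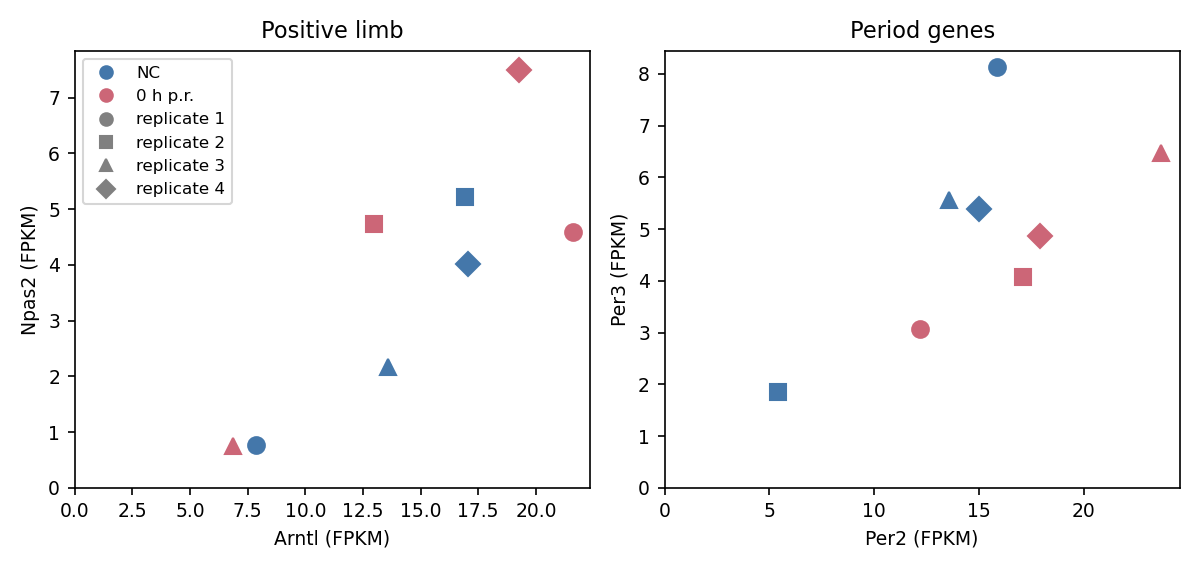
Pairs of core clock genes plotted against each other in FPKM on linear axes, 1 point per library with the group by colour and the replicate by shape. Arntl and Npas2 are low in the same pair of libraries (r = 0.915 on the log2 scale). Per2 and Per3 lie close to 1 line in each group, with the 0 h p.r. line shifted towards Per2.

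Raw ratios of members within a library do not depend on the scaling between libraries, and the 0.5 FPKM added for the test makes them depend on it, most at low levels. In all, 7 pairs were compared with an exact permutation test over 70 assignments. The Per2 to Per3 ratio was the one that set the groups apart. Its raw value lay between 1.95 and 2.92 for NC and between 3.66 and 4.19 for 0 h p.r. rats, so the groups did not overlap. On the log2 scale with 0.5 FPKM added, NC rats had 1.22 ± 0.21 and 0 h p.r. rats 1.84 ± 0.073 (SD, n = 4 each), a difference of 0.62. All 4 0 h p.r. rats lay above all 4 NC rats on this scale too. The exact p was 0.0286, the smallest this design allows, and adjusted over the 7 pairs it was 0.200, so the ratio did not pass the adjustment. With any 1 library left out the difference was 0.52 to 0.68, and with medians in place of means the exact p was 0.0571.

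The other ratios overlapped between the groups. Cry1 kept to 0.230 to 0.319 of Cry2 in NC and 0.248 to 0.329 in 0 h p.r. rats, with a difference in log2 ratio of 0.02 (exact p = 0.800). The Per1 to Per2 ratio differed by 0.02 (exact p = 0.971) and the Per1 to Per3 ratio by 0.64 (exact p = 0.143, adjusted p = 0.5). The Arntl to Per2 ratio, which sets an activator against a repressor of opposite phase, spread from 0.496 to 3.12 in NC and from 0.291 to 1.77 in 0 h p.r. rats, with a log2 difference of -0.49 (exact p = 0.514). The Arntl to Clock and Npas2 to Clock ratios differed by -0.17 and 0.17 (exact p of 0.714 and 0.857).

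**Figure D4:**
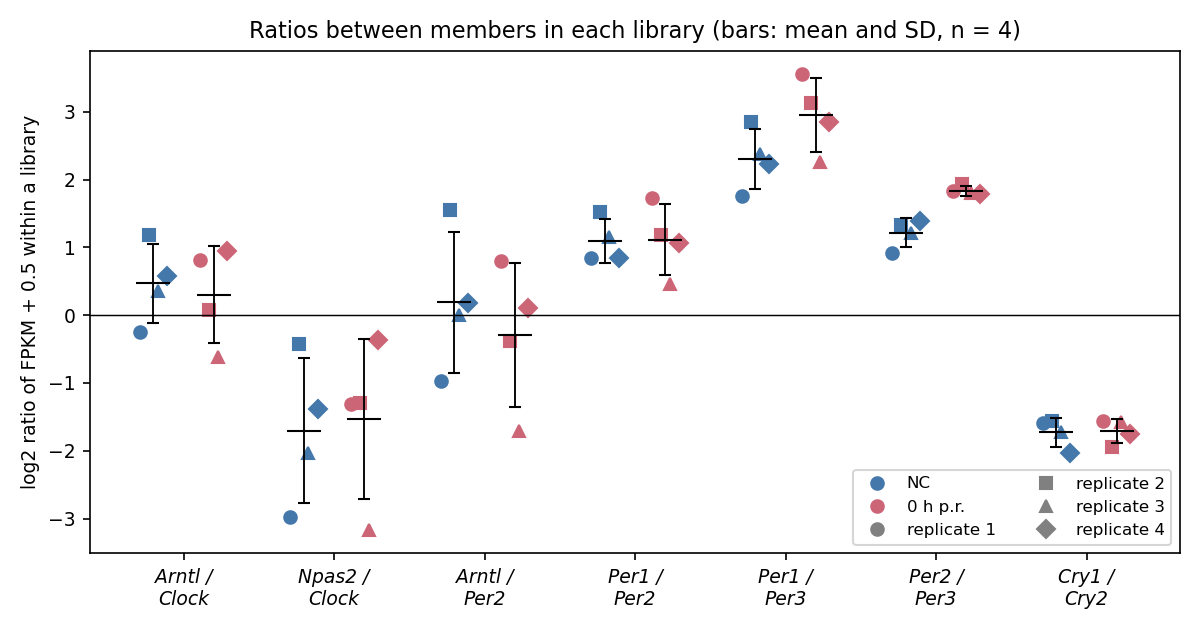
Log2 ratio of FPKM (with 0.5 added) for 7 pairs of core clock genes, 1 point per library with the group mean and SD. Only the Per2 to Per3 ratio has groups that do not overlap, and the Cry1 to Cry2 ratio is nearly the same in both.

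Levels were ordered within each group by their means. In NC the means fell from Per1 (25.8 FPKM) and Cry2 (23.8 FPKM) through Arntl, Per2, Clock and Cry1 to Per3 (5.24 FPKM) and Npas2 (3.04 FPKM). In 0 h p.r. rats the order was Per1 (38.0 FPKM), Cry2 (33.8 FPKM), Per2, Arntl, Clock, Cry1, Per3 (4.62 FPKM) and Npas2 (4.39 FPKM). Per2 and Arntl traded places, and in each group the order of their means held in only 2 of 4 libraries. Per1 was above Cry2 in 3 of 4 NC libraries and in 2 of 4 0 h p.r. libraries. Per3 was above Npas2 in 3 of 4 NC libraries and in only 1 of 4 0 h p.r. libraries, so neither end of the order was firm. Neighbours that kept their order in 4 of 4 libraries were Clock above Cry1 in NC, and Cry2 above Per2 and Cry1 above Per3 in 0 h p.r. rats. With 4 rats a group no order of neighbours can reach a two-sided exact sign-flip p below 0.125.

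Within the families, Per1 made up 54.5% to 69.3% of the summed Per FPKM in NC and 52.2% to 73.2% in 0 h p.r. rats. Per3 made up 7.83% to 15.4% in NC and 5.39% to 10.3% in 0 h p.r. rats. Cry2 was the main Cry transcript, at 75.8% to 81.3% in NC and 75.3% to 80.1% in 0 h p.r. rats. The share of Npas2 in the sum of Clock and Npas2 ran from 7.50% to 42.0% in NC and from 6.50% to 43.3% in 0 h p.r. rats.

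Outside the core, 11 genes of the secondary loop were tested, out of 14 listed, and 4 passed both thresholds as higher, against 1.80% of all genes tested. At an adjusted p below 0.05 alone 5 were higher, against 3.49%, and none was lower. Bhlhe40, which encodes a repressor that competes for E-boxes, rose from 24.9 ± 7.49 to 116 ± 12.6 FPKM (SD, n = 4 each), or 2.25 in log2 fold change (limma adjusted p = 0.000947). Its paralog Bhlhe41 rose from 4.98 ± 0.962 to 10.6 ± 2.46 FPKM, a log2 fold change of 1.01 (limma adjusted p = 0.0229), and it fell short of a threshold in 6 of 8 fits with 1 library left out (adjusted p up to 0.0688) and in those with a pseudocount of 1, quantile normalisation, same-sum scaling, array weights or voom. Nfil3, the repressor at D-boxes, rose from 23.1 ± 3.76 to 50.6 ± 9.27 FPKM, by 1.11 (limma adjusted p = 0.00811, and 0.0576 with a replicate block). Ciart, a repressor of the ARNTL and CLOCK pair, rose from 0.731 ± 0.411 to 6.33 ± 3.62 FPKM, by 2.28 (limma adjusted p = 0.0415), and lost the call in 7 of 8 fits with 1 library left out (adjusted p up to 0.120), with a replicate block (0.0962), with voom (0.119) and with same-sum scaling (0.0652).

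Rora, whose product activates Arntl through the ROR element, rose from 2.64 ± 0.471 to 4.80 ± 0.748 FPKM, by 0.76 (limma adjusted p = 0.0328), which is under the fold of 2. Its adjusted p was above 0.05 in 6 of 8 fits with 1 library left out (up to 0.101), with a replicate block (0.111), with voom (0.0752) and with same-sum scaling (0.210). The REV-ERB genes Nr1d1 and Nr1d2 had log2 fold changes of 0.10 and 0.22, and the D-box activators Dbp, Tef and Hlf had -0.18, -0.33 and -0.40, none of which passed. Of 16 genes of clock protein turnover tested, 1 passed both thresholds as higher, against 1.80% of all genes tested. This was Usp2, a deubiquitinase that acts on clock proteins, which rose from 6.26 ± 2.37 to 22.6 ± 6.08 FPKM, by 1.82 (limma adjusted p = 0.0110). Csnk1e, a kinase that marks PER proteins for degradation, rose by 0.48 (limma adjusted p = 0.0328), under the fold of 2. Its adjusted p was above 0.05 in 6 of 8 fits with 1 library left out (up to 0.105) and with a replicate block (0.122). The same held with voom (0.176), with same-sum scaling (0.423) and, narrowly, with quantile normalisation (0.0501).

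**Figure D5:**
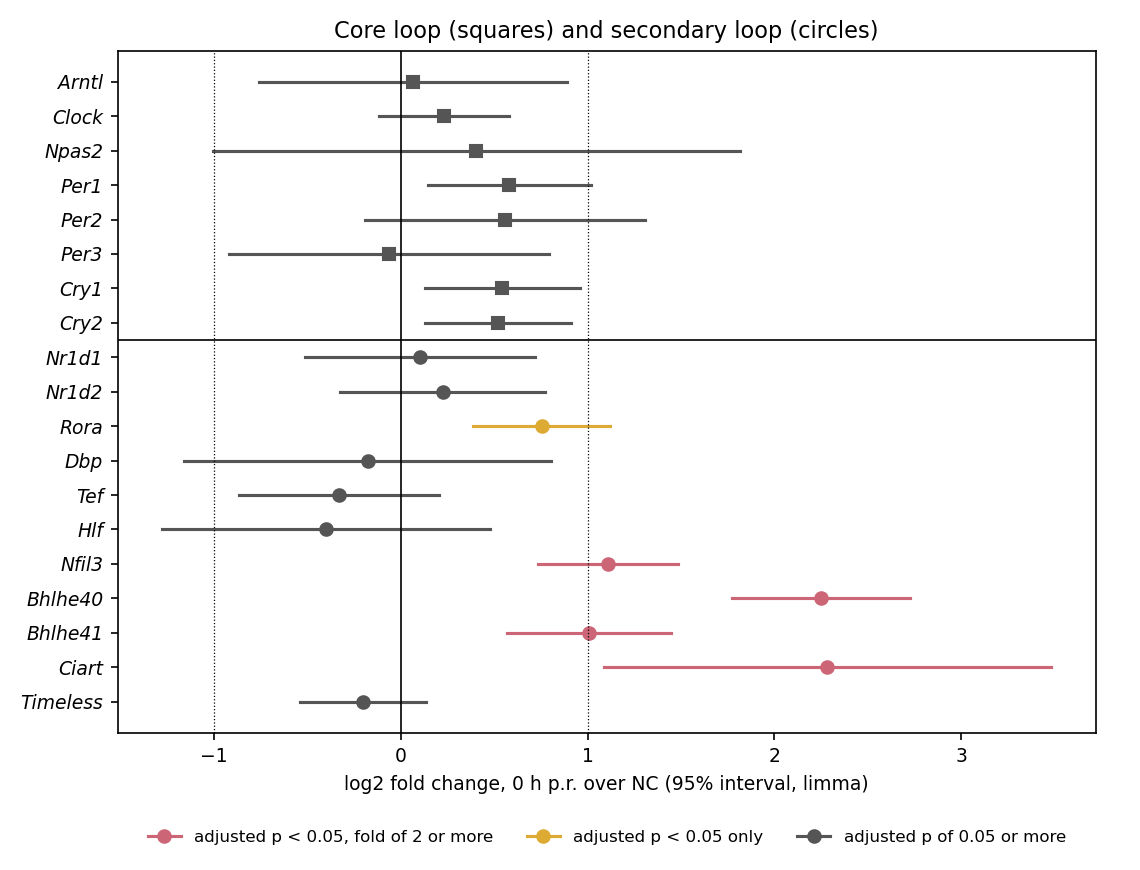
Log2 fold change of 0 h p.r. over NC with its 95% interval from limma, for the 8 core genes (squares) and 11 secondary loop genes (circles), coloured by threshold. Core genes lie between -0.06 and 0.58, while Bhlhe40 and Ciart lie above 2.

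By profile over the 8 libraries, measured as the root mean square difference of log2(FPKM + 0.5) after subtraction of the NC mean, the nearest genes were closest for Clock and farthest for Npas2, the members whose own profiles departed least (0.248) and most (0.971) from the NC mean. Clock was nearest to Nacc1 (0.0603) and Map4k4 (0.0622), Cry2 to Tnfrsf21 (0.0875) and Chst11 (0.0912), and Per1 to Auts2 (0.111) and Alkbh5 (0.112). Cry1 was nearest to Hs6st1 (0.156) and Tnfrsf21 (0.156), and Per2 to Fam89a (0.181) and Slc4a7 (0.183). Npas2 was nearest to Mrpl30 (0.523) and Hepacam (0.541), Arntl to LOC108349189 (0.274) and Pla2g2e (0.293), and Per3 to Gins1 (0.215) and Mir5125 (0.239).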

How the data were processed

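PolyA RNA of 8 Achilles tendons was made into stranded libraries, and the deposited table was analysed as given. Per the submitters' processing notes and the methods, the authors used HISAT2 2.1.0, featureCounts 1.6.3 and DESeq2 1.30.1 with genome build Rnor_6.0, and deposited FPKM values per library. The strand setting of the counting is not given in the sources used here, so reads of overlapping antisense genes may be included. Columns of log2 fold change and p-value in the deposited table hold the authors' own comparison and were not used.

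Samples were grouped by their titles, and columns were matched to samples by description. Whole reads were recovered from the steps of the FPKM values (to within 0.02 reads) for 15589 of 15590 genes and used for depth and for voom. Genes with at least 0.5 FPKM in at least 4 libraries were tested with limma 3.58.1 (R 4.3.3) on log2(FPKM + 0.5), two-sided and with a mean-variance trend, and p-values were adjusted by Benjamini-Hochberg over all 13863 tested genes. Fold changes on this scale understate those of low genes. Both thresholds means an adjusted p below 0.05 and a fold of at least 2. Ratios and correlations used exact permutation tests (scipy 1.17.1). Scripts were tested on simulated data.

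All members are named, with the secondary loop and turnover genes past the thresholds (Rora, Csnk1e and the other genes below them were named after their values were seen) and the 2 genes nearest to each member by profile. The members and lists were chosen with earlier results of these data known. Alternatives changed the pseudocount, filter, scaling, weights and tool, added a replicate block, or left out each library in turn.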

Additional observations from a re-analysis of the deposited data

Results flagged for a closer look

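Cry1 in the 0 h p.r. group had 1 library far from the others. Replicate 2 stood at 7.38 FPKM, while the other 3 libraries lay between 10.7 and 11.4 FPKM, and the gap was a larger share of the range of the group than the 95% limit for 4 samples allows. This was 1 of 30 groups of 4 libraries examined in this way, and chance marks about 1 in 20. The cause was not tested.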

How the results depend on the processing

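No core member passed both thresholds under any alternative, and the lowest adjusted p was 0.0592 (Per1, limma with array weights). Clock, Per1, Per2, Cry1 and Cry2 kept their direction throughout. The log2 fold change of Arntl turned to -0.026 with voom, which also moved the median of all genes to -0.11, and with 1 library left out it ran from -0.17 to 0.39, that of Npas2 from -0.0208 to 0.97 and that of Per3 from -0.44 to 0.18. With libraries scaled to the same sum, no member had an unadjusted p below 0.05. Log2 ratio differences with 1 library left out ran from -0.40 to 0.14 for Arntl to Clock, -0.25 to 0.72 for Npas2 to Clock, -0.88 to -0.02 for Arntl to Per2, 0.44 to 0.87 for Per1 to Per3, -0.18 to 0.24 for Per1 to Per2 and -0.0775 to 0.10 for Cry1 to Cry2. The secondary loop count of 4 was 2 with same-sum scaling, with a replicate block and with voom, and 2 to 4 with 1 library left out, being 2 for every library except NC replicate 1 and 0 h p.r. replicate 4. The turnover count of 1 was 2 by adjusted p alone and 1 to 2 with 1 library left out (2 without 0 h p.r. replicate 4). The count of 1 ratio past an exact p of 0.05 was 0 with medians and 0 with a replicate block (exact p of 0.0571 and 0.125, the latter the smallest the block allows). Without 0 h p.r. replicate 3 only 4 of 8 members kept their rank of level in that group (4 to 8 over the libraries left out). Over all genes tested, 374 passed both thresholds (250 higher, 124 lower), against 171 with same-sum scaling (133 and 38), 212 with the replicate block (177 and 35) and 362 with voom (176 and 186). With array weights 505 passed, and with 1 library left out 191 to 504. By adjusted p alone the count of 793 was 2069 with array weights and 247 to 1164 with 1 library left out, the extremes coming without 0 h p.r. replicates 2 and 4. Over all genes tested, same-numbered libraries of the 2 groups were not alike in their deviations from the group means. They had correlations of -0.14, -0.07, 0.07 and 0.01, and none matched best with its own number. The labels do not say whether same-numbered rats shared a session or batch. The causes of these shifts were not tested. With 4 rats a group, differences of 1.44- to 1.5-fold were not resolved at an adjusted p below 0.05. This held for Per2 and for the less variable Per1, Cry1 and Cry2.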

Other observations

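Among genes that answer acute stimuli, 10 of 12 immediate-early genes passed both thresholds as higher in 0 h p.r. rats, against 1.80% of all genes tested, with a median log2 fold change of 2.61 beside 0.46 for the core clock members. Of 11 genes known to respond to glucocorticoids, a hormone signal that also acts on Per1, 3 passed both thresholds as higher (Mt2A, Cdkn1a and Errfi1), against 1.80% of all genes tested, and 5 had negative log2 fold changes, with a median of 0.23 over the list. The adjusted p of Mt2A, Cdkn1a and Errfi1 was above 0.05 in 6, 4 and 5 of 8 fits with 1 library left out. The tested adipocyte markers had a median log2 fold change of -1.71.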
